A study of Homo sapiens with 6 samples.

Results

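The SOX genes encode transcription factors that bind DNA through a high-mobility-group (HMG) box, and 10 of them were followed in HCC827 cells given an EGFR inhibitor. The members were the rows of the deposited table whose symbol was SOX2, SOX4, SOX5, SOX6, SOX7, SOX9, SOX12, SOX13, SOX15 or SOX21, which are 10 of its 28395 genes. HCC827, a line established from a human lung adenocarcinoma, carries an EGFR made active by a deletion. Erlotinib inhibits the EGFR kinase. The comparison was between 3 libraries of cells given the vehicle DMSO and 3 libraries of cells given 1 μM erlotinib, both for 24 h, and it asks which genes respond to EGFR inhibition. All 6 libraries came from this 1 cell line, with no genetic change made to it. The labels do not say whether the 3 samples of a group were separate cultures, and the study's methods say only in general that experiments were repeated independently, so p-values measure the spread between these samples, which may be technical.

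SOX proteins bend DNA at short sites and usually act with a partner factor, so that the same protein can switch on different genes in different cells. They are sorted into groups by their HMG box. SOX2 (group B1) maintains stem and progenitor cells and is required for the conducting airways, where it opposes alveolar fate. SOX21 (group B2) is a close relative that acts mainly as a repressor. SOX4 and SOX12 (group C) are activators in embryonic progenitors, and SOX4 is also abundant in many carcinomas. SOX5, SOX6 and SOX13 (group D) lack a known activation or repression domain of their own. SOX9 (group E) drives cartilage formation and marks the distal tips of the developing lung. SOX7 (group F) acts in vessels and primitive endoderm, and SOX15 (group G) is related to group B1.

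The values of the table are the reads on each gene divided by 1 size factor per library, and are called signal here. Every value was a whole multiple of 1 step per library, so that the reads could be recovered. The recovered reads summed to 20858083, 24641819 and 21172884 in DMSO libraries 1 to 3. In the erlotinib libraries, numbered 4 to 6 as in the table, they summed to 21944007, 20760204 and 21678395. Of the 10 SOX genes, 8 averaged a signal of 10 or more over the 6 libraries and were tested along with 14215 genes in all. The other 2, SOX5 and SOX6, were below that limit.

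Erlotinib was followed by a large rise of SOX4 and SOX2 and a large fall of SOX9. SOX4 signal rose 6.35-fold and SOX2 signal 7.07-fold, while SOX9 signal was 7.11-fold lower. SOX12 and SOX13 rose by much less, and SOX21 rose from a level close to 0. SOX15 passed the test narrowly, with a lower level, and SOX7 did not pass. At an adjusted p-value under 0.05 (limma on log2(signal + 1), Benjamini-Hochberg over all tested genes), 5 of the 8 tested SOX genes were higher, against 35.3% of all tested genes. By the same rule 2 were lower, against 35.4% of all tested genes, and the count was 1, without SOX15, under 9 of 14 alternatives. Changes of at least 1 log2 unit were upward for 3 SOX genes, against 17.0% of all tested genes, and downward for 1, against 10.8%. SOX21 is in both upward counts, and it passed the limit on low signal only through the erlotinib libraries. With a limit of at least 10 reads in every library instead, SOX21 was not tested and 4 of 7 SOX genes were higher. Under that limit, 4354 of all 12859 tested genes were higher. The median log2 fold change was 0.34 for the 8 SOX genes and 0.02 for all tested genes. SOX21 is among the 8, and without it the middle gene is SOX13 at 0.25. Of the 14215 tested genes, 4172 were called in neither direction, so a call by itself sets no gene apart. Groups without overlap were also found among genes that did not pass the test, so a lack of overlap by itself sets none apart either. The share of all tested genes without overlap was not counted.

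**Figure D1:**
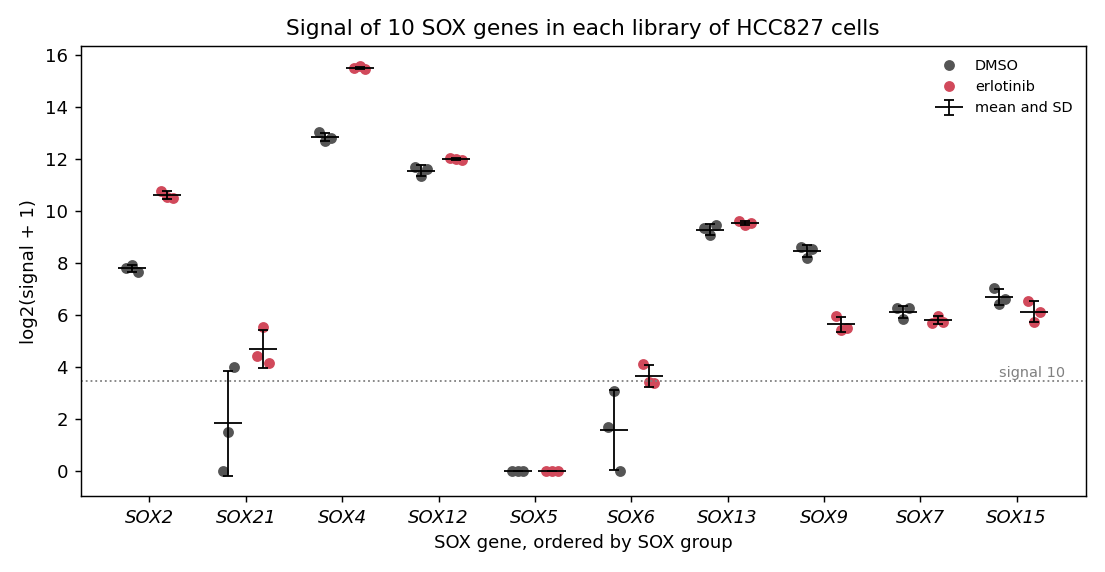
Signal of the 10 SOX genes as log2(signal + 1), with 1 point per library (grey DMSO, red erlotinib), and horizontal marks and bars for the mean and SD of 3 libraries; the dotted line is a signal of 10. The erlotinib points of SOX2 and SOX4 lie above all DMSO points, those of SOX9 lie below them, and SOX5 is at 0 throughout.

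In the plot of the signal by library, the points of SOX2, SOX4 and SOX9 form separate clusters for each condition, while those of SOX7 and SOX15 intermingle. SOX6 lies near or below the dotted line, and SOX21 runs from 0 in DMSO library 1 to 45.5 in erlotinib library 5.

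To show the sequence upstream of the 2 members that gained most signal, SOX4 and SOX2, the 250 bases before each start are printed from RefSeq (GRCh38.p14, plus strand for both genes). Capitals mark the matches to any of 5 short motifs that were searched on both strands. The SOX2 stretch is chr3:181711675-181711924 and the SOX4 stretch is chr6:21593501-21593750.
SOX2: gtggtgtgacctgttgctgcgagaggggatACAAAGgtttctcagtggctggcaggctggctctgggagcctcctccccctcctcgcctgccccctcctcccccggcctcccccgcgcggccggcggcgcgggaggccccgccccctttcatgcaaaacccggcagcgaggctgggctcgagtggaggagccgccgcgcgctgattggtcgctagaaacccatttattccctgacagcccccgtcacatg
SOX4: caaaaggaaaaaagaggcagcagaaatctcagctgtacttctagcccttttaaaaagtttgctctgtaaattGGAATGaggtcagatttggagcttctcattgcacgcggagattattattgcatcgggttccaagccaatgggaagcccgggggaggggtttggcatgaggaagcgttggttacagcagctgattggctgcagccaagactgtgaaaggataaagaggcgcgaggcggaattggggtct

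The 5 motifs were TGACTCA (a core AP-1 site), GGAATG (a core TEAD site), ACAAAG and ACAATG (SOX core sites) and TATAAA, searched in windows from 250 bases before to 50 after each start. RefSeq windows were matched for 7 of the 10 genes, with 11 windows because SOX6 has several starts. The capitals in SOX4 are a GGAATG at positions -178 to -173 from the start, and GGAATG or its reverse complement was in 14.0% of 35116 windows of the same length. The capitals in SOX2 are an ACAAAG at positions -220 to -215, letters found on either strand in 16.1% of all windows, among them 1 of SOX6. ACAATG was in windows of SOX5 and SOX6 and in 10.8% of all, and TATAAA in windows of SOX21 and SOX6 and in 11.5% of all. The AP-1 letters were in 0 of the 11 SOX windows and in 4.95% of all windows. A match is a description of these letters, and no binding was measured.

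SOX2 (Entrez gene 6657, chromosome 3, 181711925 to 181714436 of GRCh38) is a gene of 1 exon. Its signal was 222, 245 and 200.1 in DMSO libraries 1 to 3, and 1758, 1509.7 and 1455 in erlotinib libraries 4 to 6. All 3 erlotinib libraries were far above all 3 DMSO libraries, and library 4 was the highest. SOX2 signal averaged 223 ± 22.5 (DMSO) against 1574 ± 162 (erlotinib; mean ± SD, n = 3). For SOX2 the log2 change was 2.82 with an SE of 0.11 (limma, adjusted p = 4.6e-15). Of all tested genes, 348 (2.45%) had a larger log2 fold change.

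SOX2 lies within SOX2-OT, a long non-coding RNA gene on the same strand (chromosome 3, 181056680 to 181742228). SOX2-OT had 3, 14 and 10 reads in the DMSO libraries and 93, 109 and 80 in the erlotinib libraries. The log2 fold change of its signal was 3.32 (standard error 0.42, adjusted p = 5.7e-07, limma), and its DMSO mean alone was below the limit of 10. Its signal averaged 9.04 ± 5.01 in DMSO against 89.5 ± 16.8 with erlotinib (n = 3, SD). Both genes are on the same strand, and the part of SOX2-OT transcripts in the reads inside SOX2 was not tested.

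SOX21 (Entrez gene 11166, chromosome 13, 94709622 to 94712545), the other group B gene, was nearly silent in DMSO. Its recovered reads were 0, 2 and 14 in the DMSO libraries and 22, 46 and 18 in the erlotinib libraries. The groups did not overlap, but DMSO library 3, with 14 reads, came close to erlotinib library 6, with 18. SOX21 signal averaged 5.61 ± 8.17 (DMSO) against 27.6 ± 15.7 (erlotinib; mean ± SD, n = 3). The log2 change was 2.87 with an SE of 0.82 (limma, adjusted p = 0.0038), with a 95% interval from 1.17 to 4.57. SOX21 was tested only because its erlotinib libraries lifted its mean above the limit of 10, so a difference was built into its entry. DESeq2 on the recovered reads did not call it (log2 fold change 2.303, adjusted p = 0.122), and limma gave 4.13 on the log2 scale at pseudocount 0.1 and 1.31 at pseudocount 10. Without DMSO library 1 it was 1.95 and without DMSO library 3 it was 3.95, both still past the threshold. SOX21-AS1, which begins 171 bases from the start of SOX21 on the opposite strand, averaged 7.17 in DMSO and 15.8 with erlotinib (adjusted p = 0.097, limma) and was likewise tested only through its erlotinib libraries. LINC00391, at 1121 bases from SOX21, had at most 4 reads in a library.

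SOX4 (Entrez gene 6659, chromosome 6, 21593751 to 21598619), also of 1 exon, had the highest signal of the family in both conditions. Its signal was 8419.6, 6685 and 7256 in the DMSO libraries and 47028, 48849 and 46143 in the erlotinib libraries. The groups lay far apart, and the 3 erlotinib libraries lay close together. SOX4 signal averaged 7453 ± 884 (DMSO) against 47340.0 ± 1379.8 (erlotinib; mean ± SD, n = 3). SOX4 changed by 2.67 log2 units with an SE of 0.07 (limma, adjusted p = 4.2e-17). By log2 fold change, 398 tested genes (2.80%) rose more. By the gain in signal itself, 39887, SOX4 ranked 3 among the 28395 genes of the table. No gene with a row in the table overlaps SOX4 or lies within 10000 bases of it.

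SOX12 (Entrez gene 6666, chromosome 20, 325552 to 330224), the second group C member, changed in the same direction and by far less. Its signal was 3373, 2604 and 3184 in the DMSO libraries and 4234, 4077 and 4008 in the erlotinib libraries. All erlotinib libraries were above all DMSO libraries, and DMSO library 2 was the lowest. SOX12 signal averaged 3054 ± 401 (DMSO) against 4106 ± 116 (erlotinib; mean ± SD, n = 3), a 1.34-fold rise (log2 fold change 0.44, standard error 0.08, adjusted p = 7.7e-05, limma). Its log2 fold change lay between 0.33 and 0.62 over 14 alternatives, and the highest came from scaling each library to its total reads, which also moved the median of all tested genes from 0.02 to 0.20. NRSN2-AS1, which begins 300 bases before SOX12 on the opposite strand, rose by 1.30 on the log2 scale (adjusted p = 8.3e-06, limma) at a mean signal of 87.4 in DMSO and 217 with erlotinib.

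Of group D, SOX13 alone was expressed at more than a trace. SOX13 (Entrez gene 9580, chromosome 1, 204073115 to 204127743), a gene of 14 exons in its canonical transcript, had a signal of 655, 537 and 706 in the DMSO libraries and 795, 717 and 739 in the erlotinib libraries. The groups did not overlap, but DMSO library 3 (706) and erlotinib library 5 (717) nearly met. SOX13 signal averaged 633 ± 86.9 (DMSO) against 751 ± 40.5 (erlotinib; mean ± SD, n = 3). The log2 change of SOX13 was 0.25 with an SE of 0.11 (limma, adjusted p = 0.038). The call was lost without DMSO library 2 (log2 fold change 0.14, adjusted p = 0.153), without erlotinib library 4 (0.21, adjusted p = 0.152) and without erlotinib library 6 (0.26, adjusted p = 0.073). With each library scaled to its total reads it was 0.43 (adjusted p = 0.0015). ETNK2, 3319 bases away on the opposite strand, rose by 1.22 on the log2 scale (adjusted p = 9.0e-08, limma).

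SOX6 (Entrez gene 55553, chromosome 11, 15966449 to 16738477) had 2, 8 and 0 reads in the DMSO libraries and 18, 10 and 10 in the erlotinib libraries. The erlotinib libraries were all above the DMSO libraries, at 38 reads in sum against 10. An exact permutation test on log2(signal + 1) gave p = 0.10 (two-sided, n = 3 each), the smallest p that 3 libraries against 3 allow. Without the filter on low signal, limma gave a log2 fold change of 2.06 (standard error 0.71) and an adjusted p = 0.020. SOX5 (Entrez gene 6660, chromosome 12, 23529504 to 24562650) was listed at 0 in every library. A count of 0 allows up to 3 reads, or 0.122 to 0.145 RPM (reads scaled to library depth) in these libraries, by counting error only. MIR920 and SOX5-AS1 inside SOX5, LINC00477 near it and MIR6073 inside SOX6 were also listed at 0. C11orf58, which begins 170 bases from the start of SOX6, fell by 0.45 on the log2 scale (adjusted p = 1.1e-05, limma).

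SOX9 (Entrez gene 6662, chromosome 17, 72121020 to 72126416), of 3 exons, was the member that fell most. Its signal was 395, 294 and 372 in the DMSO libraries and 61.8, 42.6 and 44.9 in the erlotinib libraries. Every erlotinib library was far below every DMSO library. SOX9 signal averaged 354 ± 52.7 (DMSO) against 49.8 ± 10.5 (erlotinib; mean ± SD, n = 3). SOX9 changed by -2.81 log2 units with an SE of 0.19 (limma, adjusted p = 4.6e-11). Only 110 tested genes (0.774%) had a lower log2 fold change. SOX9-AS1, which begins 227 bases before SOX9 on the opposite strand, was listed at 0 in every library.

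SOX15 (Entrez gene 6665, chromosome 17, 7588178 to 7590094) had a signal of 132, 84.5 and 98.5 in the DMSO libraries and 93.2, 52.5 and 68.3 in the erlotinib libraries. The groups overlapped, since erlotinib library 4 was above DMSO library 2. SOX15 signal averaged 105 ± 24.2 (DMSO) against 71.3 ± 20.5 (erlotinib; mean ± SD, n = 3). On the log2 scale the change was -0.56 with an SE of 0.25 (limma, adjusted p = 0.046). The call ended with DESeq2 (log2 fold change -0.54, adjusted p = 0.074) and edgeR (-0.53, adjusted p = 0.063), with scaling to the total (-0.39, adjusted p = 0.167) and with no filter (-0.56, adjusted p = 0.090). It also ended without DMSO library 1 (-0.39, adjusted p = 0.197), DMSO library 3 (-0.60, adjusted p = 0.075), erlotinib library 5 (-0.37, adjusted p = 0.219) or erlotinib library 6 (-0.55, adjusted p = 0.093), each by limma. SOX15 overlaps MPDU1 on the opposite strand (chromosome 17, 7583647 to 7588212) by the ends of both genes. MPDU1 signal averaged 2149 ± 109 in DMSO against 1203 ± 44.6 with erlotinib (n = 3, SD) and fell by 0.84 on the log2 scale (adjusted p = 3.8e-09, limma). The strand that was counted is not stated, so reads of the overlap cannot be told apart, and their part in the SOX15 value was not tested. FXR2, 1136 bases away, did not pass the test (log2 fold change -0.02). SENP3-EIF4A1, 9172 bases away, had 13 to 26 reads in the DMSO libraries, which alone brought it over the limit on low signal, and 3 to 5 in the erlotinib libraries.

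SOX7 (Entrez gene 83595, chromosome 8, 10723768 to 10730511) had a signal of 76.0, 56.6 and 76.0 in the DMSO libraries and 50.8, 62.4 and 52.4 in the erlotinib libraries. The groups overlapped, with erlotinib library 5 above DMSO library 2. The log2 change was -0.32 with an SE of 0.25 (limma, adjusted p = 0.255), with a 95% interval from -0.84 to 0.20. A fall of the size seen for SOX9 is outside this interval.

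**Figure D2:**
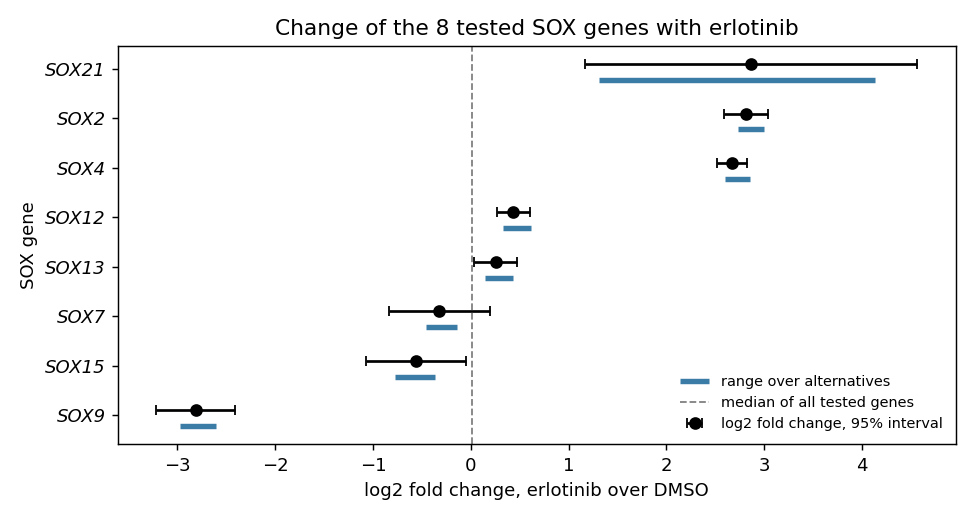
Log2 fold change of the 8 tested SOX genes (horizontal axis, erlotinib over DMSO), with black points and bars for the limma estimate and its 95% interval, blue bars for the range over the alternative analyses, and a dashed line for the median of all tested genes. SOX2 and SOX4 lie near 2.8 and 2.7 with short bars, SOX9 near -2.8, and SOX21 has the widest interval.

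In the plot of changes by gene, only the interval of SOX7 reaches across 0. For SOX2, SOX4 and SOX9 the alternatives moved the estimate by less than the length of its 95% interval. Their log2 fold changes lay between 2.74 and 3.00 for SOX2, between 2.60 and 2.85 for SOX4 and between -2.98 and -2.61 for SOX9 over 14 alternatives.

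Levels of different genes were compared per length, as RPKM, the reads scaled to the length of the merged exons and to the total reads of the library. In DMSO, the order by level was SOX4 at 66.3 ± 6.56 RPKM, SOX12 at 28.3 ± 3.43, SOX9 at 3.90 ± 0.54, SOX2 at 3.84 ± 0.38, SOX13 at 3.70 ± 0.52 and SOX15 at 3.09 ± 0.65 RPKM (SD, n = 3). The levels of SOX9, SOX2, SOX13 and SOX15 lay within their spread of each other. SOX7 followed at 0.94 ± 0.15 RPKM, and SOX21, SOX6 and SOX5 were below 0.1 RPKM. With erlotinib, SOX4 was at 477 ± 10.6 RPKM, SOX12 at 43.2 ± 1.38, SOX2 at 30.8 ± 3.29, SOX13 at 4.97 ± 0.30 and SOX15 at 2.39 ± 0.70 RPKM (SD, n = 3). SOX7 (0.84 ± 0.09 RPKM), SOX9 (0.62 ± 0.13 RPKM) and SOX21 (0.46 ± 0.26 RPKM) came last but for the traces of SOX6 and SOX5, and the spreads of SOX9 and SOX21 overlapped.

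SOX2 and SOX9, which mark opposite ends of the developing airway tree, thus went from alike to far apart in level. The ratio of the SOX2 to the SOX9 level (RPKM) was 0.88, 1.30 and 0.84 in the DMSO libraries and 44.5, 55.5 and 50.7 in the erlotinib libraries. The ratio of the SOX4 to the SOX12 level was 2.19 to 2.46 in the DMSO libraries and 10.7 to 11.5 in the erlotinib libraries. Among 13372 tested genes with a known length, SOX4 ranked 485 by level in DMSO and 22 with erlotinib, SOX2 ranked 7326 and 1279, and SOX9 ranked 7278 and 11697.

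The summed level of 19 SOX genes, the 10 members and 9 others, was 110 ± 10.99 RPKM in DMSO and 561 ± 12.2 RPKM with erlotinib (SD, n = 3 each). SOX4 made up 60.1% ± 1.34 of this sum in DMSO and 85.1% ± 0.89 with erlotinib. The share of SOX12 went from 25.6% ± 1.04 to 7.69% ± 0.22, although its own level rose. The share of SOX2 was 3.53% ± 0.70 in DMSO and 5.48% ± 0.53 with erlotinib, and that of SOX9 was 3.53% ± 0.20 and 0.111% ± 0.023 (SD, n = 3 each). Since RPKM divides by the total reads of the library, these levels carry the scaling to the total described for SOX12.

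**Figure D3:**
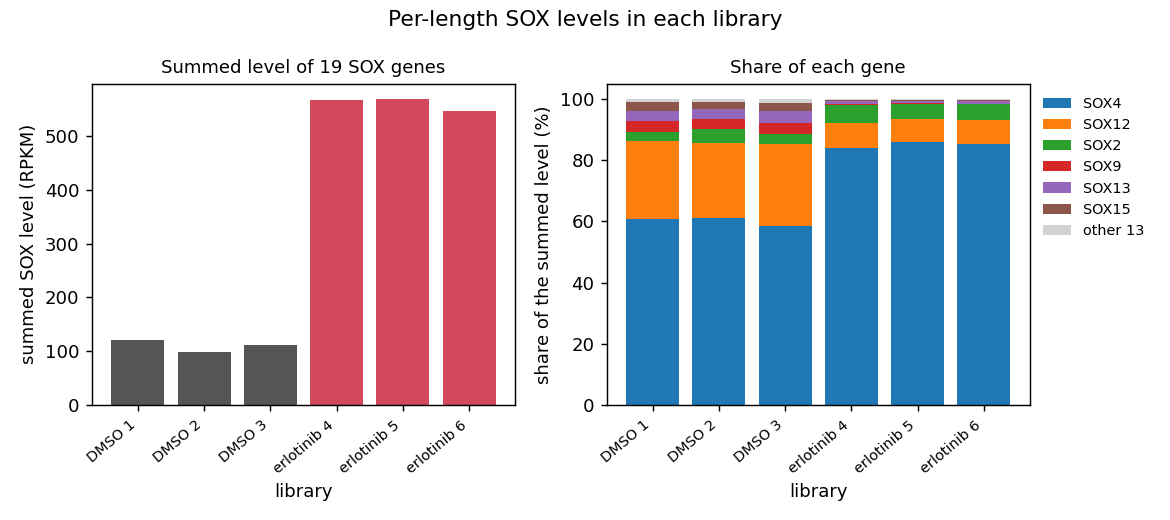
Summed level of 19 SOX genes in RPKM (left) and the percentage of that sum given by each gene (right), with 1 bar per library. The sum is 98.4 to 120 RPKM in the DMSO libraries and 547 to 569 RPKM in the erlotinib libraries, and SOX4 (blue) takes the larger part of every bar.

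In the plot of summed levels, the 3 libraries of a condition look alike, and the step between conditions is made mostly by SOX4. The 9 other SOX genes (SOX1, SOX3, SOX8, SOX10, SOX11, SOX14, SOX17, SOX18 and SOX30) were not tested, since the highest mean signal among them was 6.80, that of SOX30. SOX1, SOX3, SOX14 and SOX17 were listed at 0 in every library. The other 5 had at most 14 reads in any library.

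The other genes of these pathways were described by lists, whose counts stand beside 35.3% higher and 35.4% lower among all tested genes. Of 11 other genes with a sequence-specific or related HMG box, 10 were tested, and 5 were higher, 1 lower and 4 neither (median log2 fold change 0.54). That median includes TCF7L1, at a mean signal of 7.93 in DMSO and 17.0 with erlotinib. TCF7L1 passed the limit on low signal only through the erlotinib libraries, and without it the middle gene is TOX4 at 0.27. HBP1, a repressor of cell-cycle genes, rose most among the called genes, from a mean signal of 428 ± 27.2 to 1638.5 ± 51.0 (log2 fold change 1.94), followed by TOX (1.27) and TOX3 (0.81). TCF7, a partner of β-catenin, fell by 1.33 on the log2 scale. For HBP1, TOX, TOX3 and TCF7 the adjusted p was 1.2e-04 or lower (limma).

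Of 16 partner and pluripotency genes of SOX2, 4 were tested, with 1 higher, 2 lower and 1 neither (median -0.77). POU2F1, a ubiquitous octamer-binding factor, fell from 1932 ± 220.0 to 1124 ± 29.3 (log2 fold change -0.78), and CHD7, a chromatin remodeller that binds SOX2, fell by 0.76 on the log2 scale (adjusted p at most 6.3e-08, limma). SALL2, a zinc finger factor, went from a signal of 2.71 to 19.5 (log2 fold change 2.43, adjusted p = 0.0026, limma), and it too passed the limit on low signal only through the erlotinib libraries. NANOG, LIN28B, DPPA4, UTF1, SALL1 and POU3F1 were listed at 0 in every library, and POU5F1 was at 5.28 in DMSO and 2.17 with erlotinib.

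Of 18 regulators of airway and lung progenitors, 14 were tested, with 8 higher, 3 lower and 3 neither (median 0.56). CEBPA rose by 2.06, ELF3 by 1.70 and NKX2-1, the lineage factor of lung epithelium, by 1.53 on the log2 scale. Signal of NKX2-1 averaged 3002 ± 209 in DMSO against 8644 ± 408 with erlotinib (n = 3, SD). ETV5, an ETS factor that accompanies SOX9 at the distal lung tips, fell from 1327 ± 30.0 to 67.6 ± 28.9 (log2 fold change -4.38), and FOXA2 (-1.01) and GATA6 (-0.34) were also lower. FOXA3 was listed at 0. The adjusted p-values of CEBPA, ELF3, NKX2-1, ETV5, FOXA2 and GATA6 were at most 0.033 (limma).

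Of 18 TCF/LEF factors and WNT feedback genes, 10 were tested, with 3 higher, 4 lower and 3 neither (median 0.09). TCF7L1, tested only through its erlotinib libraries, is again among them. RNF43 (1.69), SP5 (1.06) and LGR4 (0.90) rose, while TCF7 (-1.33), DKK1 (-0.84) and ZNRF3 (-0.38) fell (adjusted p at most 0.038, limma). NKD2 and APCDD1 were listed at 0. AXIN2 and LGR5, common reporters of WNT signalling, had mean signals under 1 in both conditions. Of the rest not tested, NOTUM averaged 0.62 in DMSO and 14.6 with erlotinib, and ASCL2 averaged 1.13 and 8.04. LEF1 was at 0 in DMSO and 1.25 with erlotinib, and NKD1 at 3.55 and 1.87.

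Of 5 genes listed as targets of SOX4 and its relatives, 1 was higher, 3 lower and 1 neither (median -0.60). TEAD2, a partner of YAP and TAZ on DNA, rose from 187 ± 35.2 to 706 ± 60.1 (SD, n = 3 each, log2 fold change 1.92). SEMA3C (-1.80), EZH2 (-1.33) and DICER1 (-0.60) were lower, and TUBB3 did not pass the test (0.13, adjusted p = 0.121, limma). The adjusted p-values of TEAD2, SEMA3C, EZH2 and DICER1 were at most 3.5e-06 (limma). Of 12 cartilage genes driven by SOX9 with SOX5 and SOX6, 2 were tested. COL9A2 rose from a signal of 49.97 ± 5.00 to 176 ± 35.5 (log2 fold change 1.78, adjusted p = 2.9e-07, limma), MATN3 did not pass, and COL11A1, COL11A2, COMP and HAPLN1 were listed at 0.

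**Figure D4:**
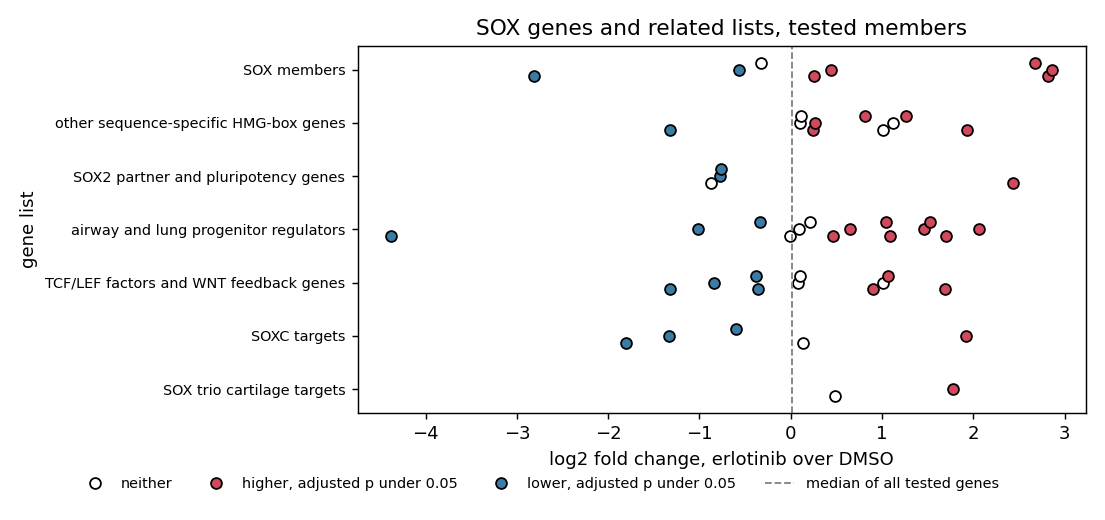
Log2 fold change (horizontal axis, erlotinib over DMSO) of each tested gene of the SOX members and of 6 related lists, with 1 point per gene, red where higher and blue where lower at an adjusted p-value under 0.05, white where neither; the dashed line is the median of all tested genes. The SOX members spread from -2.81 to 2.87, and every list holds at least 1 higher gene.

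In the plot of the lists, SOX21, SOX2 and SOX4 are the points farthest to the right, and SOX9 is second to ETV5 on the left.

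The 3 genes whose profile over the 6 libraries was nearest to that of SOX2 were PANX2, CYP1B1 and SMIM14, among 12024 tested genes whose signal averaged at least 50. The measure was the Euclidean distance between log2(signal + 1) values, each centred on its own mean, and was 0.181, 0.212 and 0.251 for these genes. For SOX4 the nearest were ALDH3B1 (0.132), YPEL2 (0.186) and UNC5CL (0.195), and for SOX9 KIF18B (0.418) and FAM83D (0.432) were among the 3 nearest. With 2 conditions, genes that change by a like amount have a like profile.

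The cell line was checked against markers. All 8 epithelial markers were expressed, with mean signals of 27824 in DMSO and 30609 with erlotinib for CDH1 and of 9852 and 9485 for EPCAM. MUC1 (2.82 on the log2 scale) and CLDN4 (0.93) rose, KRT18 (-1.25), KRT8, KRT7 and KRT19 fell, and CDH1 and EPCAM passed in neither direction (limma). The most abundant was KRT7. Their sum was 268580 to 302260 in the DMSO libraries and 216440 to 222140 in the erlotinib libraries. Of 6 fibroblast markers, COL1A1 alone was tested, at a mean signal of 77.7 in DMSO and 216 with erlotinib (log2 fold change 1.47, adjusted p = 6.8e-07, limma), while DCN was at 0 and 1.55 and COL1A2 at 1.00 and 0. The fibroblast sum was 73.7, 75.2 and 109 in the DMSO libraries and 260.2, 223 and 215 in the erlotinib libraries. Of 5 endothelial markers, VWF rose from 3.94 to 27.4 (adjusted p = 6.6e-04, limma) and was tested only because of its erlotinib libraries, PECAM1 was at 15.7 and 10.4, and EMCN was listed at 0. The endothelial sum was 15.8 to 34.0 in the DMSO libraries and 45.9 to 58.1 in the erlotinib libraries. The immune sum came almost wholly from CD68, which is also made by other cells (2898 in DMSO and 3394 with erlotinib), and TYROBP was listed at 0. Of 6 neural and neuroendocrine markers, CHGA, INSM1 and ELAVL4 were listed at 0, and the sum of the list was at most 26.8 in any library. The basal cell markers KRT5, KRT14 and TP63, which often accompany SOX2 in squamous and basal cells, did not pass the test, and KRT15 fell by 0.41 on the log2 scale. The sum of the 5 basal markers was 653 to 818 in the DMSO libraries and 544 to 658 in the erlotinib libraries. The part of these markers in the SOX results was not tested. In bulk RNA, fewer cells of a type and less RNA per cell cannot be told apart.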

How the data were processed

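RNA from 6 libraries of HCC827 cells was sequenced, 3 per condition. Mapping to GRCh38 was with Bowtie2 2.3.4 and counting of uniquely placed reads with featureCounts 1.6.3, by the authors. The deposited values are signal: the file's own steps show reads divided by a size factor for each library, and 100% were whole multiples of the step, within 0.01 of a read, and the number of columns not used was 0. The strand counted is not given in the sources used here. Bowtie2 does not split reads over introns, so levels of genes with many exons, such as SOX13, may be understated against genes of 1 exon. EIF4A1, near SOX15 and needed by every cell, was listed at 0, so a value of 0 need not mean that the RNA was absent. EIF4A1 overlaps SENP3-EIF4A1, and the part of the counting of overlapping genes in values of 0 was not tested.

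All 14215 genes averaging a signal of 10 or more were tested by limma 3.58.1 (R 4.3.3) on log2(signal + 1) with a variance trend, two-sided, with p-values adjusted by Benjamini-Hochberg and called under 0.05. The alternatives were DESeq2 1.42.0 and edgeR 4.0.16 (TMM factors) on recovered reads, scaling to the total, pseudocounts of 0.1 and 10, no filter, at least 10 reads in every library, a threshold of 0.01, and each library left out in turn. The procedure was tested on simulated data. Lengths are merged exons of GENCODE 44, known for 94.1% of tested genes by symbol, and positions and upstream sequence are from RefSeq (GRCh38.p14). The genes named are the 10 members, the largest rises and falls of each list (up to 3 each) and its genes at 0, overlapping genes and those within 10000 bases where they bear on a member, and the 3 nearest profiles of SOX2, SOX4 and SOX9; a few genes that this rule names are not reported here. POU5F1, AXIN2, LGR5, NOTUM, ASCL2, LEF1, NKD1, TUBB3 and EIF4A1 and the marker genes were named to describe their lists or the counting. The members and lists were chosen with earlier results of these data known. Pairs of libraries within a condition differed beyond sampling noise (chi-square over its degrees of freedom 4.05 to 22.9). The highest values, 22.9 and 14.4, came from the pairs with DMSO library 2. The remaining DMSO pair was at 7.61, and the erlotinib pairs were at 4.05 to 5.87.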

Additional observations from a re-analysis of the deposited data

How the results depend on the processing

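SOX2, SOX4, SOX9 and SOX12 kept their direction and their call under all 14 alternatives, and the number of SOX genes higher with erlotinib was 4 to 6. The number of SOX genes lower with erlotinib was 2, and it was 1, SOX9 alone, with DESeq2, with edgeR, with scaling to the total, with no filter and with a threshold of 0.01, and between 1 and 2 as each library was left out. SOX15 held its call under 5 of 14 alternatives, SOX13 under 10 of 14 and SOX21 under 12 of the 13 in which it could be tested, since it had no value under the minimum of 10 reads per library. SOX7 stayed on the same side of the threshold throughout. No direction reversed. The number of all genes higher was 4323 to 6156 and of genes lower 3955 to 5096; scaling to the total gave 6156 higher and 3955 lower, against 5012 and 5031. Low reads limit SOX21, SOX6 and the SOX genes not tested, where differences of a few reads were not detectable. No paired analysis was possible because the table numbers its erlotinib columns 4 to 6 while the sample titles number both groups 1 to 3, so that the erlotinib columns could be matched to their group but not to a numbered sample.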
